A study of Mus musculus with 8 samples.

Results

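The 37 imprinted genes described here were taken from the cortical transcriptome of newborn Phf6 R342X mutant and wild-type mice. They were chosen by symbol from the 53392 genes in the files, as genes known in mice to be expressed mainly from 1 parental allele. All 37 symbols were found, with 255 of the 136202 annotated transcripts. By textbook knowledge 13 are expressed from the maternal allele and 21 from the paternal allele. For the other 3 (Grb10, Gnas and Inpp5f) the allele depends on the isoform. Within the maternal class, the allele of Copg2, Commd1, Blcap, Trappc9 and Slc22a3 also depends on tissue or isoform. The 37 genes fall into 17 imprinted domains.

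The study sequenced mRNA from flash-frozen cortex at P0 of FVB/N mice, in 4 libraries of the R342X mutant genotype and 4 of the wild-type genotype, which are numbered 1 to 4 within each genotype. Its stated purpose is to find how cortical expression differs with the mutation. The X-linked Phf6 gene encodes a PHD finger protein of the nucleus. The labels name no animal, litter, sex or batch, so p-values measure only the spread between these libraries, which may be technical.

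Imprinting is set up in the germ line, where DNA methylation is laid down at a control region on the chromosome of 1 parent only. After fertilisation the zinc finger proteins ZFP57 and ZFP445 bind methylated control regions and help to keep the mark, and the marked and unmarked alleles then transcribe different genes of the domain. Many imprinted genes act in fetal growth, in the placenta and in the brain, and several are imprinted in neurons only. Reads were not split by allele in the files, so every level below is the sum over both alleles, and a loss of imprinting with no change in this sum could not be seen.

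Libraries held 30469745 to 39453169 estimated reads in mutants and 48841467 to 74266937 in wild type, so rare transcripts were counted less precisely in mutants. Phf6 fell to 42.2 ± 1.93 CPM (read counts scaled for library size by TMM) in mutant cortex, against 79.0 ± 8.87 CPM in wild-type cortex (SD, n = 4 each), with an adjusted p of 0.00226 in edgeR's quasi-likelihood test. The libraries also separated into 2 sets on the first principal component, which held 35.3% of the variance. Set 1 held mutant replicates 1 to 3 and wild-type replicate 1, and set 2 held mutant replicate 4 and wild-type replicates 2 to 4. Nothing in the labels names this division, so fits with genotype alone are set beside fits with the library set as a second term. The sets were drawn from the same values that these fits test. Adjusted p-values with the set as a term may therefore be too small, and calls made with it are descriptive. Genes of cortical neurons were abundant in both genotypes, for example the neuronal tubulin Tubb3 with 1950 CPM in mutant cortex and 2090 CPM in wild-type cortex and the excitatory transporter Slc17a7 with 125 CPM in mutant cortex and 101 CPM in wild-type cortex. Of 14 markers of hypothalamus and thalamus, 9 passed the filter on low counts, and the list summed to 54.28 to 65.63 CPM in mutants and 54.29 to 64.51 CPM in wild type.

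Imprinted genes carried 0.7834%, 0.8173%, 0.8095% and 0.7957% of reads in mutant libraries 1 to 4, against 0.7711%, 0.749%, 0.7833% and 0.8184% in wild-type libraries 1 to 4. These ranges overlapped. Levels of different genes are compared in TPM, which corrects for transcript length. Nnat, the neuronatin gene, was the most abundant at 2530 ± 88.5 TPM in mutant cortex and 2550 ± 171 TPM in wild-type cortex (SD, n = 4 each). Gnas followed with 1200 ± 8.85 TPM in mutant cortex and 1180 ± 30.8 TPM in wild-type cortex. Next came the noncoding RNAs Rian, with 1030 ± 82.8 TPM in mutant cortex and 949 ± 50.6 TPM in wild-type cortex, and Meg3, with 1000 ± 62.6 TPM in mutant cortex and 939 ± 63.1 TPM in wild-type cortex. Rian and Meg3 did not differ beyond their spread, while Gnas lay above both in every library and Nnat above Gnas. In all, 27 of the genes reached 10 TPM in wild type. At the low end were Nespas at 0.760 TPM in mutant cortex and 1.03 TPM in wild-type cortex, Phlda2 at 0.0971 TPM in mutant cortex and 0.236 TPM in wild-type cortex, and Rtl1 at 0.0684 TPM in mutant cortex and 0.0390 TPM in wild-type cortex.

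Little of the imprinted gene set differed between the genotypes. Of the 37 genes, 36 passed the filter on low counts, and Phlda2, a gene that restrains placental growth, did not, with 0 to 2 estimated reads per mutant library and 1 to 5 per wild-type library. With genotype as the only term, none of the 36 passed edgeR's quasi-likelihood test at an adjusted p of 0.05, and the smallest adjusted p was 0.159, for Peg10. Over all 20097 genes tested this fit called 4, or 0.0199%, so 36 genes would rarely include a call. At an unadjusted p under 0.05 there were 5 imprinted genes (Peg10, Grb10 and Peg3 higher in mutants, Peg13 and Copg2 lower), against 13.7% of all genes (6.89% higher and 6.84% lower). DESeq2 called 2 of the 36, Peg10 higher and Peg13 lower, where it called 2% of all genes (1.13% higher and 0.861% lower). Under limma-voom 0 of the 36 were called, but its share over all genes is not given here, so this 0 cannot be set against it. In CPM, no mutant library lay among the wild-type ones for 3 imprinted genes. Peg10 was higher, as for 2.95% of all genes, and Peg13 and Copg2 were lower, as for 3.2% (6.15% in either direction).

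Log2 fold changes of mutant over wild type were close to 0. For 33 of the 36 they lay within 0.2 of 0, with a median standard error of 0.07, and the exceptions were Peg10 and the rare transcripts Rtl1 and Nespas. Among the abundant members, for example, Meg3 had a log2 fold change of 0.05 (95% interval -0.06 to 0.16), Blcap 0.005 (-0.09 to 0.10), Inpp5f 0.03 (-0.05 to 0.11) and Gnas -0.04 (-0.14 to 0.07). A change of the size seen for Phf6, -0.90, lay outside each of these intervals. Of the 36, 24 were above 0 and 12 below, with a median of 0.04, where 50.3% of all genes were above 0 and their median was 0.001. On log2(TPM + 0.1) with limma the imprinted median was 0.09, beside a median of 0.05 over all genes.

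**Figure D1:**
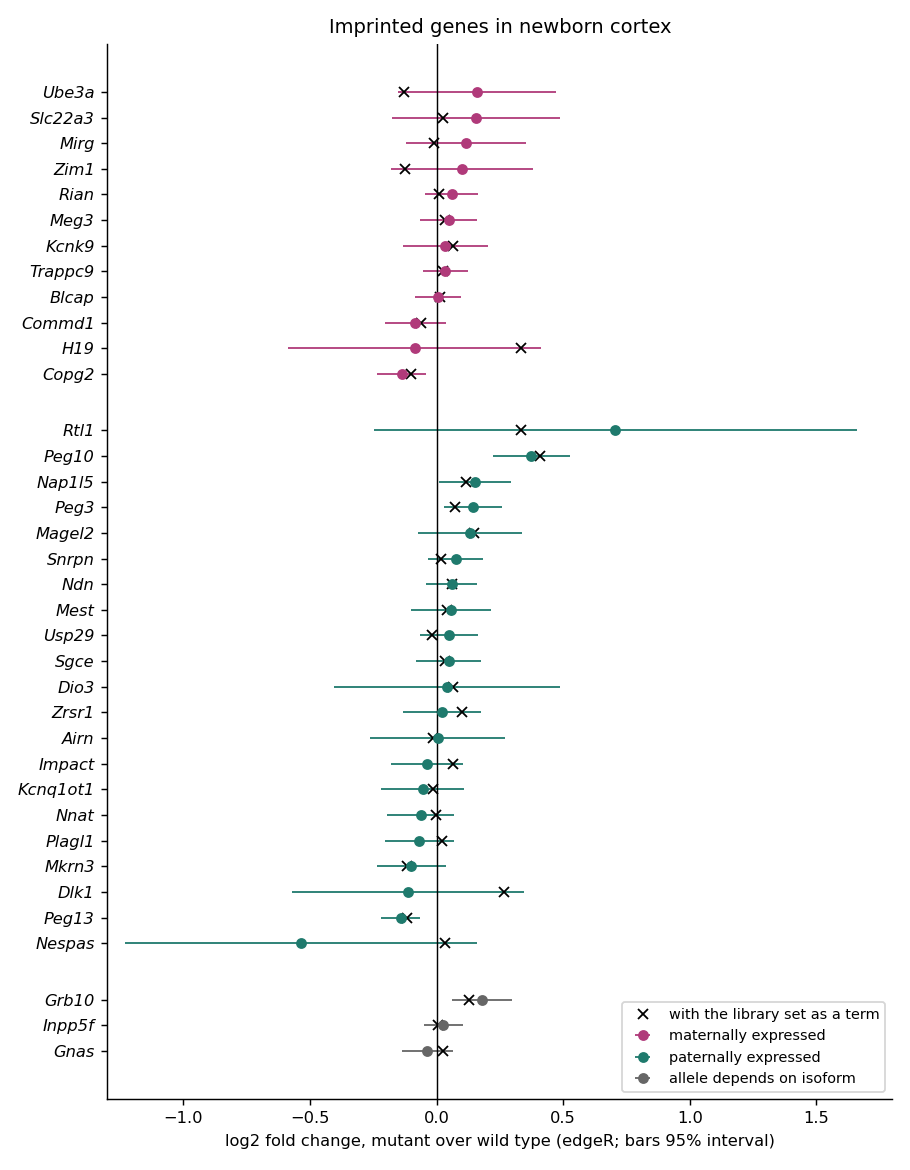
Log2 fold changes (x axis, mutant over wild type) of the 36 imprinted genes that passed the filter, 1 per row, grouped as maternally expressed, paternally expressed and isoform-dependent. Points with bars are estimates and 95% intervals with genotype as the only term (edgeR, n = 4 each) and crosses are estimates with the library set as a second term. All but Peg10, Rtl1 and Nespas lie within 0.2 of 0, and the crosses leave the points mainly for Rtl1, Nespas, H19, Dlk1, Ube3a and Zim1.

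The median differences of maternally and of paternally expressed genes were alike. Among the 12 maternally expressed genes tested, 9 had a fold above 0, and the median log2 fold change was 0.04. Among the 21 paternally expressed genes, 13 had a fold above 0, and the median was also 0.04. With the set as a term the medians were 0.01 for the maternally expressed and 0.04 for the paternally expressed genes, and with offsets for transcript length the maternal median was -0.01. Averaged per library on the log2 scale, relative to the mean of all 8 libraries, the maternally expressed genes stood at 0.01, 0.09, -0.03 and 0.00 in mutant libraries 1 to 4 and at 0.04, -0.06, -0.04 and -0.00 in wild-type libraries 1 to 4. The paternally expressed genes stood at -0.04, 0.01, 0.07 and 0.03 in mutant libraries 1 to 4 and at -0.11, -0.09, 0.04 and 0.09 in wild-type libraries 1 to 4. For both classes the genotypes overlapped. Within domains, 21 pairs of a paternally and a maternally expressed gene could be formed, and the mean read ratio of paternal over maternal was higher in mutants for 6 of them. From the folds with the set as a term it was higher in mutants for 17 of the 21, so the direction of this count turned with the set. The pairs share genes, such as Meg3 and Ube3a, and so are not separate observations. Those with Rtl1 rest on 3 to 10 Rtl1 reads per mutant library and 3 to 18 per wild-type library. None of all 37 pairs within domains passed adjustment over the pairs (smallest adjusted p = 0.529, exact two-sided permutation test).

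**Figure D2:**
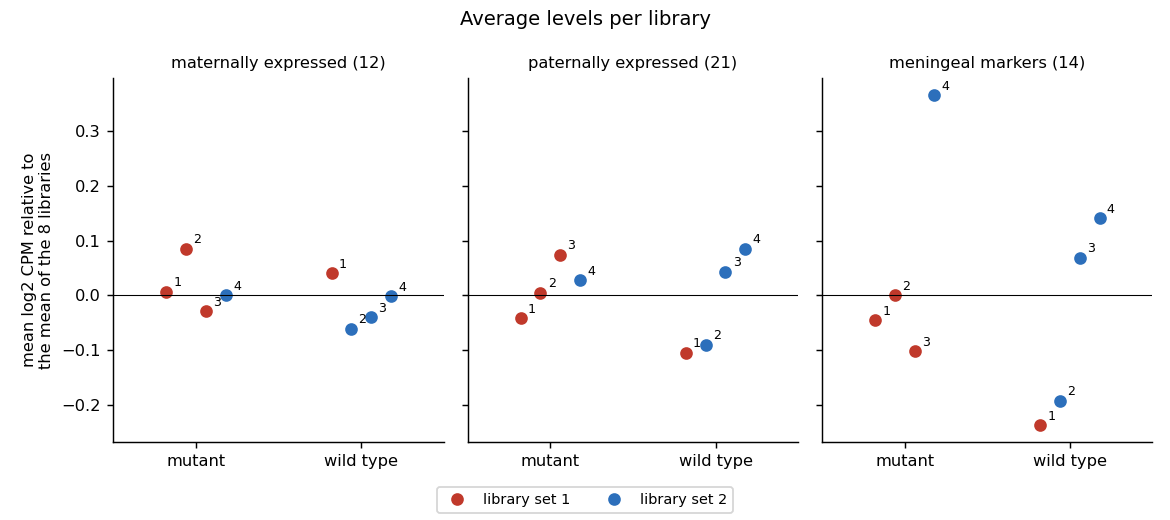
Mean log2 CPM (y axis, relative to the mean of the 8 libraries) of the 12 maternally expressed genes, the 21 paternally expressed genes and 14 meningeal markers, for each mutant and wild-type library, with replicate numbers beside the points and colours for the library set. The genotypes overlap in both imprinted classes, which stay between -0.11 and 0.09, while the meningeal markers reach 0.37 in mutant replicate 4.

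Peg10 was the imprinted gene with the smallest p, and was higher in mutants. It is a paternally expressed gene derived from a retrotransposon, with gag- and pol-like reading frames, and is required in the mouse placenta. It lies on the plus strand of chromosome 6 from 4747306 to 4760517 (GRCm38). It stood at 61.9, 67.7, 68.7 and 69.3 CPM in mutant libraries 1 to 4, against 49.6, 45.4, 52.0 and 59.3 CPM in wild-type libraries 1 to 4. Every mutant library lay above every wild-type library, and wild-type replicate 4 came closest. The mean was 1.30-fold higher in mutants (log2 fold change 0.37 ± 0.08, SE, n = 4 each), and an exact two-sided permutation test gave p = 0.0286, the lowest value possible with 4 libraries each.

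With genotype alone Peg10 did not pass adjustment over all genes (edgeR adjusted p = 0.159). It was called by DESeq2 (adjusted p = 0.0041) and by edgeR with the library set as a term (log2 fold change 0.41 ± 0.08, adjusted p = 0.0381), a fit that called 0.602% of all genes (0.239% higher). In it 25 of the 36 imprinted genes had a fold above 0, against 48.5% of all genes. Within set 1 (1 wild-type library) the log2 difference was 0.41, and within set 2 (1 mutant library) it was 0.42. Neither difference has a spread in both genotypes. The call in the fit with the set was kept without wild-type replicate 2 (edgeR adjusted p = 0.0434) or 4 (0.00892). It was lost without mutant replicate 1 (0.0634), 2 (0.102), 3 (0.0619) or 4 (0.179) or wild-type replicate 1 (0.249) or 3 (0.0631), while with genotype alone Peg10 was called once mutant replicate 4 was left out (adjusted p = 0.0488), a fit that called 3.58% of all genes. In bulk RNA, more cells that express a gene and more RNA per cell cannot be told apart.

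The neighbour that shares Peg10's control region did not differ in the same way. Sgce, which encodes epsilon-sarcoglycan and is mutated in human myoclonus dystonia, is also paternally expressed and is transcribed from the opposite strand, with 98 bases between the annotated starts. Sgce was at 20.9, 18.3, 20.3 and 18.9 CPM in mutant libraries 1 to 4 and at 18.9, 18.5, 18.4 and 20.2 CPM in wild-type libraries 1 to 4. These libraries overlapped, and the log2 fold change was 0.05 (95% interval -0.08 to 0.17; edgeR adjusted p = 0.746). Reads of Peg10 per read of Sgce were 2.97, 3.69, 3.38 and 3.66 in mutant libraries 1 to 4 and 2.62, 2.46, 2.83 and 2.94 in wild-type libraries 1 to 4. Each mutant ratio thus exceeded each wild-type ratio (exact two-sided permutation p = 0.0286, adjusted p = 0.529 over the 37 pairs).

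Peg13 was lower in every mutant library in CPM, but not in TPM. It is a paternally expressed noncoding RNA on the minus strand of chromosome 15 (72805600 to 72810324), within the gene Trappc9, whose transcription runs in the same direction. Peg13 stood at 266, 273, 264 and 272 CPM in mutant libraries 1 to 4, against 285, 302, 306 and 294 CPM in wild-type libraries 1 to 4. In CPM all mutant libraries lay below all wild-type libraries, by a small margin. In TPM the genotypes overlapped, at 105, 109, 100 and 102 in mutant libraries 1 to 4 and 112, 109, 113 and 104 in wild-type libraries 1 to 4. The log2 fold change was -0.14 ± 0.04 (SE, n = 4 each), with an adjusted p of 0.229 in edgeR and 0.023 in DESeq2. With the set as a term it was -0.12 (edgeR adjusted p = 0.175), and on log2(TPM + 0.1) with limma -0.07 (adjusted p = 0.504).

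The maternally biased genes beside Peg13 overlapped between genotypes. Trappc9, a subunit of the TRAPP vesicle-tethering complex, was at 64.4, 64.5, 67.9 and 66.2 CPM in mutant libraries 1 to 4 and at 65.8, 62.9, 66.0 and 62.0 CPM in wild-type libraries 1 to 4. Kcnk9, a potassium leak channel of neurons, averaged 51.8 ± 6.62 CPM in mutant cortex and 50.6 ± 2.02 CPM in wild-type cortex (SD, n = 4 each). The ratio of Peg13 to Trappc9 reads was 4.13, 4.24, 3.89 and 4.10 in mutant libraries 1 to 4 and 4.33, 4.79, 4.64 and 4.73 in wild-type libraries 1 to 4, so no mutant ratio reached a wild-type one (exact two-sided permutation p = 0.0286, adjusted p = 0.529). Because Peg13 lies inside Trappc9 on the same strand, reads from unspliced Trappc9 RNA there and reads from Peg13 cannot be told apart.

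Copg2 was the other gene whose genotypes did not overlap in CPM. It encodes a subunit of the COPI vesicle coat, is biased to the maternal allele in mouse brain, and ends against the paternally expressed Mest, a gene of the alpha/beta hydrolase family that acts in growth. Copg2 was at 60.4, 60.5, 59.5 and 62.5 CPM in mutant libraries 1 to 4, against 63.6, 71.9, 66.1 and 65.8 CPM in wild-type libraries 1 to 4. The mutant libraries were all lower, with mutant replicate 4 near wild-type replicate 1. The log2 fold change was -0.14 ± 0.05 (SE, n = 4 each; edgeR adjusted p = 0.293, or 0.346 with the set as a term). Mest was at 55.6, 53.2, 56.6 and 62.8 CPM in mutant libraries 1 to 4 and at 62.1, 49.6, 50.3 and 57.2 CPM in wild-type libraries 1 to 4, with overlap and little difference (log2 fold change 0.06, edgeR adjusted p = 0.75). The transcripts of Mest and Copg2 overlap on opposite strands, and whether strand was used in counting is not given in the sources used here, so reads from the shared stretch cannot be told apart.

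The promoters of this pair are shown because they differ in parental allele. ZFP57 is known to bind TGCCGC where the CG within it is methylated, and capitals mark this hexamer or its reverse complement (both strands searched) in the RefSeq promoter windows of GRCm38.p6, from 250 bases before to 50 after a start. The Mest window lies at chr6:30737800-30738099 on the plus strand and the Copg2 window at chr6:30896745-30897044 on the minus strand.
Mest: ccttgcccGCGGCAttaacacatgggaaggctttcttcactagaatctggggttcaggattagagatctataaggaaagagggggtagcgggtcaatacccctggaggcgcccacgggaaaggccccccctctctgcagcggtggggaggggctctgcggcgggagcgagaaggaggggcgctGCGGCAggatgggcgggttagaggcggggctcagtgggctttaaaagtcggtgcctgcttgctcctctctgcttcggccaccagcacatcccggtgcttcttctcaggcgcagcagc
Copg2: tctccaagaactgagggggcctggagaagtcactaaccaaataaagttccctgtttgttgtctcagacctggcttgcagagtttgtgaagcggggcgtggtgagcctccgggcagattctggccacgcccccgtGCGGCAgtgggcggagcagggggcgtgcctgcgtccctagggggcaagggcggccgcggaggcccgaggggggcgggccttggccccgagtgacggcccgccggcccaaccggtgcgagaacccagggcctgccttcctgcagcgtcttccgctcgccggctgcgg
The Mest window shown held 2 hexamers and 17 CG dinucleotides, and the Copg2 window 1 hexamer and 25 CG dinucleotides. Windows were found for 28 of the 37 imprinted genes, 39 windows in all, and not for H19, Rtl1, Peg10, Sgce, Impact, Nespas, Peg13, Trappc9 and Kcnk9. Mest had 3 windows, of which 1 starts 3 bases from the one shown and also holds 2 hexamers, while the one at chr6:30733256-30733555 held 0 hexamers and 8 CG dinucleotides. The hexamer was present in 11 of the 39 (28.2%), which belong to 10 genes, against 11.6% of all 32851 promoter windows, and the median number of CG dinucleotides was 15 against 7. Promoters of the maternally expressed genes held it in 4 of 12 windows and those of the paternally expressed genes in 6 of 20. A match is a string of letters in these windows and not a measured binding site.

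**Figure D3:**
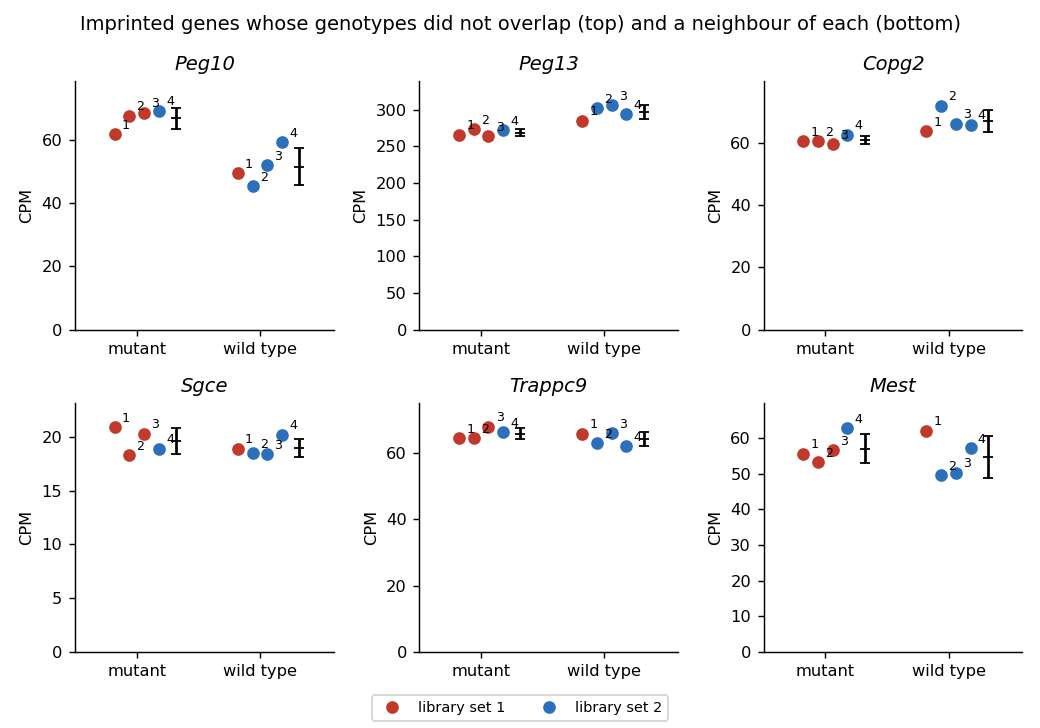
CPM (y axis, from 0) of Peg10, Peg13 and Copg2 above and of a neighbour of each, Sgce, Trappc9 and Mest, below, in each mutant and wild-type library, with replicate numbers and library set colours. Bars give mean ± SD (n = 4 each). The genotypes are separate in the top row and overlap in the bottom row.

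Grb10 encodes an adaptor that restrains signalling from the insulin and IGF1 receptors. In mice its upstream promoter acts from the maternal allele in most tissues, and other promoters act from the paternal allele in neurons. Grb10 stood at 78.5, 73.9, 73.3 and 74.6 CPM in mutant libraries 1 to 4 and 73.5, 61.1, 66.5 and 64.1 CPM in wild-type libraries 1 to 4. Only wild-type replicate 1 reached the mutant range. The log2 fold change was 0.18 ± 0.06 (SE, n = 4 each; edgeR adjusted p = 0.271, exact two-sided permutation p = 0.0571). With the set as a term it was 0.13 (edgeR adjusted p = 0.295). The log2 difference was 0.03 within set 1 (1 wild-type library) and 0.22 within set 2 (1 mutant library).

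Transcripts of Grb10 start in separate places, and both windows with RefSeq starts are shown for that reason. The upstream one lies at chr11:12037371-12037670 and the downstream one at chr11:12027922-12028221, on the minus strand, with the same hexamer in capitals where present.
Grb10 upstream: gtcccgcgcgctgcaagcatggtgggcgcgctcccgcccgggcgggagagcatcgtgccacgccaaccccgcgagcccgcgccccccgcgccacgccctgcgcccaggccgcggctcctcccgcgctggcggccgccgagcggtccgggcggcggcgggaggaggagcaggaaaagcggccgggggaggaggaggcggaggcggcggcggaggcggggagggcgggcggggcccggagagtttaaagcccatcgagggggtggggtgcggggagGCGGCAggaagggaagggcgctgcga
Grb10 downstream: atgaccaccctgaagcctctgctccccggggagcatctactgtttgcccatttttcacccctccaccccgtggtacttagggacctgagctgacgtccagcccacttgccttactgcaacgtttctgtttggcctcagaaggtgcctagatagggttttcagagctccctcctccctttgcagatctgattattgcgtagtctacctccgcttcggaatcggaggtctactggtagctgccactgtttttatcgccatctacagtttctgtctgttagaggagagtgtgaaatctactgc
The upstream window held 45 CG dinucleotides and the downstream one 9. Grouping the annotated transcripts by start site, the upstream group supplied 79.1% ± 1.31 of Grb10 TPM in mutants and 80.6% ± 4.36 in wild type (SD, n = 4 each), and the downstream group 12.9% ± 1.15 in mutants and 13.4% ± 2.38 in wild type. The shares of each group overlapped between genotypes. Which start group comes from which allele was not measured.

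Gnas encodes the alpha subunit of the stimulatory G protein, and its locus has alternative first exons with different imprinting. From 5′ to 3′ these are the maternally expressed Nesp, the paternally expressed XL, the paternally expressed exon 1A and the main exon 1, which is biallelic in most tissues. Gnas stood at 960, 947, 1010 and 1020 CPM in mutant libraries 1 to 4 and at 923, 1010, 1030 and 1080 CPM in wild-type libraries 1 to 4, with overlap and an adjusted p of 0.754 in edgeR. Transcripts from the main start group made up 94.8% ± 0.450 of Gnas TPM in mutants and 94.8% ± 0.246 in wild type (SD, n = 4 each). Those that start at Nesp made up 1.90% ± 0.496 in mutants and 2.18% ± 0.264 in wild type. The exon 1A group made up 2.84% ± 0.341 in mutants and 2.43% ± 0.213 in wild type, and the XL group 0.0302% in mutants and 0.0331% in wild type. In each of these groups the libraries of the genotypes overlapped. Nespas, the paternally expressed antisense RNA of this locus, had 16 to 41 reads per mutant library and 26 to 84 per wild-type library, for a log2 ratio of -0.54 ± 0.35 (SE, n = 4 each; edgeR adjusted p = 0.5) with genotype alone and of 0.03 with the set as a term.

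Inpp5f encodes a phosphoinositide phosphatase, and in mouse brain a short variant from an internal promoter is paternally expressed. The gene was at 340, 336, 341 and 315 CPM in mutant libraries 1 to 4 and at 322, 328, 324 and 333 CPM in wild-type libraries 1 to 4, which overlapped (edgeR adjusted p = 0.768). Short transcripts that start near the 3′ end supplied 84.2% ± 1.34 of its TPM in mutants and 83.1% ± 1.08 in wild type, and the full-length start 7.78% ± 0.847 in mutants and 8.61% ± 0.526 in wild type (SD, n = 4 each). Across the 10 start groups of Grb10, Gnas and Inpp5f with at least 1% of the gene's TPM, exact two-sided permutation tests gave adjusted p-values of 0.629 to 1.0. This grouping was chosen after the values were seen.

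**Figure D4:**
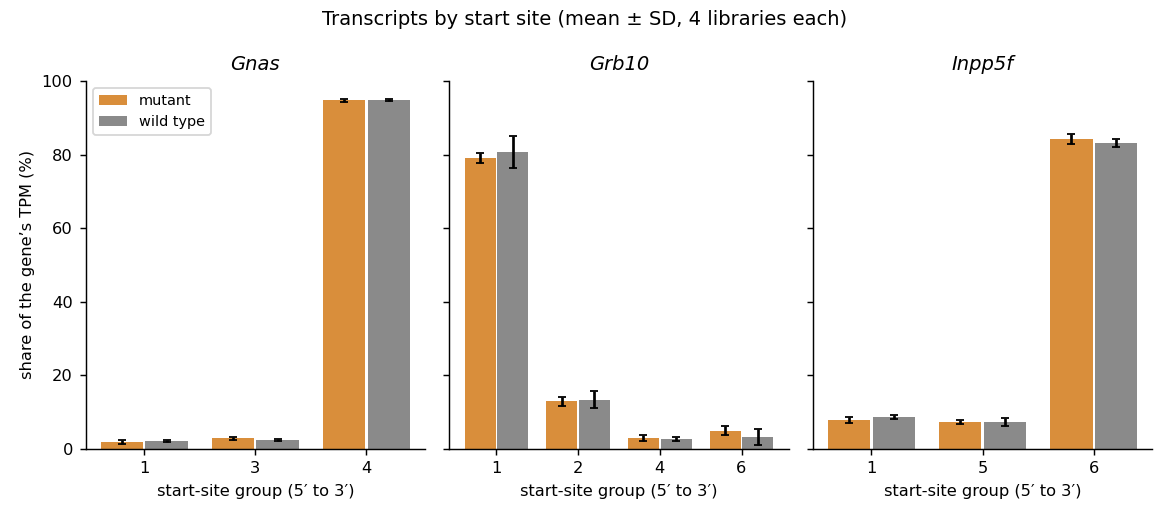
Share of each gene's TPM (y axis, percent) by start-site group, numbered from 5′ to 3′, for Gnas, Grb10 and Inpp5f, as mean ± SD of 4 mutant and 4 wild-type libraries. Groups under 1% in wild type are left out. In each gene 1 group carries most of the TPM (94.8%, 79.1% and 84.2% in mutants), and the error bars of the paired genotypes overlap.

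The Peg3 domain on chromosome 7 holds 2 paternally expressed genes that diverge from 1 control region and a maternally expressed neighbour. Peg3 encodes a zinc finger protein that acts in growth and maternal behaviour, and Usp29 a ubiquitin-specific protease. Their annotated starts are 146 bases apart on opposite strands. The Peg3 window (chr7:6730370-6730669, minus strand) therefore covers the start of both genes and is printed for that reason; it holds no copy of the hexamer.
Peg3: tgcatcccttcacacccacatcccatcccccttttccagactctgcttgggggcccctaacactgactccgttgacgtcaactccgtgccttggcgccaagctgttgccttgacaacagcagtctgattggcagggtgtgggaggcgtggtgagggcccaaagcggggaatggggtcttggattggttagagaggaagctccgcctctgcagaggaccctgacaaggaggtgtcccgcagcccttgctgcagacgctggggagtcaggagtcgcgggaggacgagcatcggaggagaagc
Peg3 stood at 181, 190, 183 and 175 CPM in mutant libraries 1 to 4 and at 185, 156, 156 and 163 CPM in wild-type libraries 1 to 4. Wild-type replicate 1 lay within the mutant range and the other wild-type libraries below it. The log2 fold change was 0.14 ± 0.06 (SE, n = 4 each; edgeR adjusted p = 0.334), and 0.07 with the set as a term (adjusted p = 0.498). Usp29 averaged 66.7 ± 4.04 CPM in mutant cortex and 64.6 ± 3.35 CPM in wild-type cortex (SD, n = 4 each). Zim1, the maternally expressed zinc finger gene beside them, was at 22.7, 23.9, 21.9 and 17.5 CPM in mutant libraries 1 to 4 and at 26.1, 17.7, 19.9 and 16.6 CPM in wild-type libraries 1 to 4, and was higher in every library of set 1 than in any of set 2.

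In the Dlk1-Dio3 domain on chromosome 12, the maternal chromosome transcribes the noncoding RNAs Meg3, Rian (a host of small nucleolar RNAs) and Mirg (a host of microRNAs), and the paternal chromosome the genes Dlk1, Rtl1 and Dio3. Meg3 was at 2210, 2560, 2240 and 2360 CPM in mutant libraries 1 to 4 and at 2360, 2110, 2220 and 2370 CPM in wild-type libraries 1 to 4. The genotypes overlapped (edgeR adjusted p = 0.702). Rian averaged 752 ± 51.2 CPM in mutant cortex and 721 ± 24.4 CPM in wild-type cortex, and Mirg 9.10 ± 0.905 CPM in mutant cortex and 8.4 ± 1.32 CPM in wild-type cortex (SD, n = 4 each). Dlk1, which encodes a transmembrane protein related to Notch ligands, was at 7.60, 7.24, 8.99 and 13.2 CPM in mutant libraries 1 to 4 and at 6.48, 9.01, 11.4 and 13 CPM in wild-type libraries 1 to 4. The low libraries of Dlk1 were those of set 1 in both genotypes. Dio3, which inactivates thyroid hormone, averaged 1.96 ± 0.564 CPM in mutant cortex and 1.89 ± 0.479 CPM in wild-type cortex. Rtl1, a retrotransposon-derived gene, had 3 to 10 reads per mutant library and 3 to 18 per wild-type library, and its log2 fold change of 0.71 carried a 95% interval of -0.25 to 1.66.

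In the Prader-Willi/Angelman domain on chromosome 7, Snrpn (a core spliceosomal protein of neurons), Ndn and Magel2 (MAGE family proteins) and Mkrn3 (a ring finger protein) are expressed from the paternal allele. Snrpn was at 359, 350, 378 and 312 CPM in mutant libraries 1 to 4 and at 334, 330, 335 and 330 CPM in wild-type libraries 1 to 4, with mutant replicate 4 below and the other mutant libraries above all wild-type ones (log2 fold change 0.08, edgeR adjusted p = 0.54). Ndn averaged 347 ± 18.4 CPM in mutant cortex and 333 ± 15.0 CPM in wild-type cortex, and Magel2 13.3 ± 1.11 CPM in mutant cortex and 12.1 ± 1.66 CPM in wild-type cortex (SD, n = 4 each). Mkrn3 averaged 15.4 ± 0.941 CPM in mutant cortex and 16.5 ± 0.834 CPM in wild-type cortex. None of the 4 passed edgeR's test (adjusted p-values of 0.518 to 0.592).

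Ube3a, the ubiquitin ligase of Angelman syndrome, is maternally expressed in neurons, where the antisense end of the Snrpn transcript silences the paternal copy. Ube3a stood at 122, 119, 114 and 78.6 CPM in mutant libraries 1 to 4 and 128, 90.6, 86.5 and 84.1 CPM in wild-type libraries 1 to 4. The high libraries were those of set 1, in both genotypes. The log2 fold change was 0.16 ± 0.16 (SE, n = 4 each; edgeR adjusted p = 0.651) with genotype alone and -0.13 ± 0.04 with the set as a term (adjusted p = 0.199). The value with genotype alone also depended on transcript length, at -0.05 with transcript length offsets and 0.02 on log2(TPM + 0.1) with limma. Ube3a overlaps the antisense gene Snhg14, so reads of the shared stretch cannot be told apart without strand.

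H19 separated by library set and not by genotype. It is a maternally expressed noncoding RNA of chromosome 7 that shares a control region with the paternally expressed growth factor gene Igf2, and both are known to be expressed in the meninges and vessels of the brain. H19 was at 72.9, 76.9, 78.3 and 151 CPM in mutant libraries 1 to 4 and at 64.5, 98.6, 116 and 123 CPM in wild-type libraries 1 to 4. The highest library was mutant replicate 4 and the lowest was wild-type replicate 1, and the genotypes overlapped. With genotype alone the log2 fold change was -0.09 ± 0.25 (SE, n = 4 each; edgeR adjusted p = 0.887), and with the set as a term it was 0.33 ± 0.07 (adjusted p = 0.0552). The log2 difference of mutant minus wild type was 0.24 within set 1 (1 wild-type library) and 0.43 within set 2 (1 mutant library). Without wild-type replicate 2 the fit with the set called H19 higher (0.29, edgeR adjusted p = 0.0434), as it did without wild-type replicate 4 (0.36, adjusted p = 0.0386), and without each of the other 6 libraries it did not (adjusted p from 0.0742 to 0.368). With genotype alone the log2 fold change was -0.41 without mutant replicate 4 (adjusted p = 0.179) and lay from -0.24 to 0.03 without each other library.

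Igf2, outside the 37, was highest in the same library as H19. It was at 338, 388, 301 and 539 CPM in mutant libraries 1 to 4 and at 263, 287, 336 and 335 CPM in wild-type libraries 1 to 4. The log2 fold change was 0.36 ± 0.16 (SE, n = 4 each; edgeR adjusted p = 0.362) with genotype alone. With the set as a term Igf2 rose by 0.57 ± 0.09 on the log2 scale (edgeR adjusted p = 0.0295), a call lost without mutant replicate 1 (0.0559), 2 (0.0777) or 4 (log2 fold change 0.38, adjusted p = 0.234). Meningeal markers were also highest in mutant replicate 4. The 14 markers summed to 825.7, 850.8, 772.9 and 1085 CPM in mutant libraries 1 to 4 and to 681, 716.9, 854.8 and 861 CPM in wild-type libraries 1 to 4, with none at 0. In the fit on genotype 11 of the 14 had a fold above 0 (median log2 0.14), and with the set as a term 13 did (median 0.32), with Aldh1a2 and Ptgds called higher, against 0.239% of all genes. Leaving out 1 library lost the call of Ptgds in 7 of 8 fits (edgeR adjusted p up to 0.351) and that of Aldh1a2 in 2 of 8 (up to 0.08). Markers of endothelial and mural cells summed to 393.2 to 502.4 CPM in mutants and 370 to 439.9 CPM in wild type, with 10 of 12 above 0, and those of choroid plexus to 565.4 to 834.9 CPM in mutants and 534.9 to 719.5 CPM in wild type, with 10 of 10 above 0 and none of either list at 0. Their part in the values of H19 and Igf2 was not tested.

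**Figure D5:**
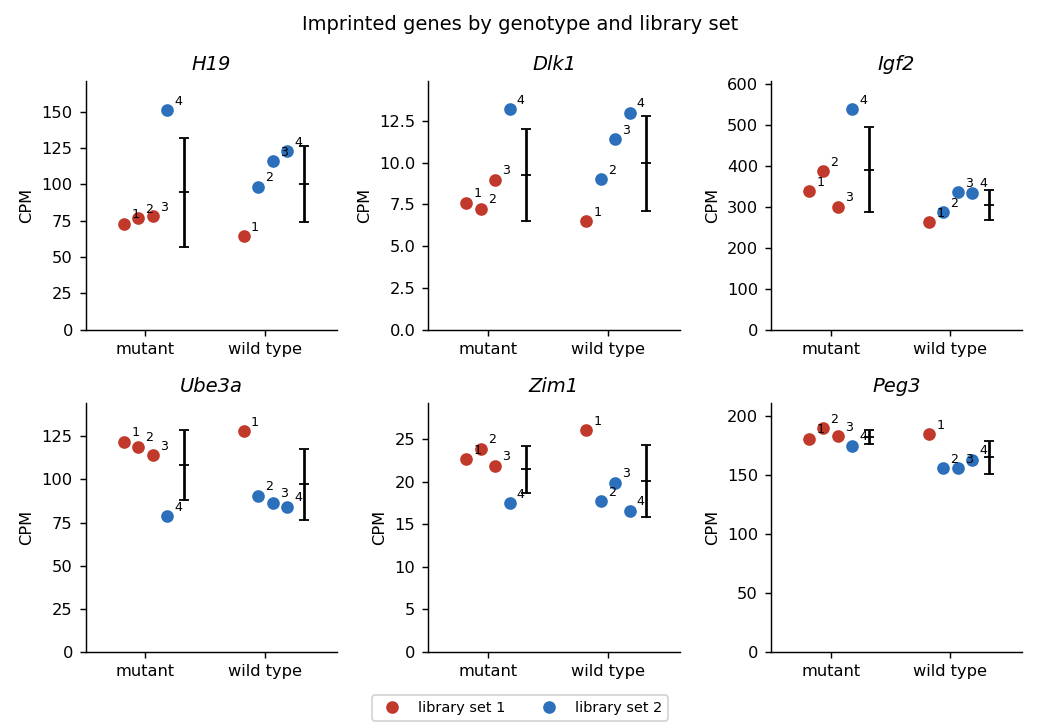
CPM (y axis, from 0) of H19, Dlk1, Igf2, Ube3a, Zim1 and Peg3 in each mutant and wild-type library, with replicate numbers and colours for the library set. Bars give mean ± SD (n = 4 each). Within each genotype the sets are separate for all of the genes shown, although mutant set 2 and wild-type set 1 are 1 library each. For H19 mutant replicate 4 (151 CPM) stands far above mutant replicates 1 to 3.

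Over the 36 genes, 9 separated the sets without overlap, against 33.3% of all genes. H19, Dlk1, Plagl1, Impact, Gnas and Nespas were higher in set 2, and Peg3, Zim1 and Ube3a higher in set 1. On the log2 scale the largest of these differences among genes above 1 CPM were those of H19, at 122 CPM in set 2 and 73.2 CPM in set 1, and of Dlk1, at 11.6 CPM in set 2 and 7.58 CPM in set 1. Because these values also defined the sets, no test is given.

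The Kcnq1 domain beside H19 was represented by Kcnq1ot1, the paternally expressed antisense RNA that silences its neighbours. It was at 56.6, 52.6, 47.6 and 54.0 CPM in mutant libraries 1 to 4 and at 51.6, 54.6, 49.2 and 63.7 CPM in wild-type libraries 1 to 4, with overlap (edgeR adjusted p = 0.771). Cdkn1c, a cell cycle inhibitor silenced by Kcnq1ot1 and outside the 37, was at 78.5, 76.2, 65.8 and 89.6 CPM in mutant libraries 1 to 4 and at 70.8, 83.3, 87.6 and 88.4 CPM in wild-type libraries 1 to 4 (log2 fold change -0.09, edgeR adjusted p = 0.67). Kcnq1ot1 overlaps Kcnq1 on the other strand. In the Igf2r domain, the paternally expressed Airn silences Igf2r and the cation transporter Slc22a3 in some tissues. Airn averaged 1.64 ± 0.136 CPM in mutant cortex and 1.63 ± 0.171 CPM in wild-type cortex (SD, n = 4 each). Slc22a3 was at 3.24, 3.98, 2.43 and 2.86 CPM in mutant libraries 1 to 4 and at 3.33, 2.45, 2.45 and 3.00 CPM in wild-type libraries 1 to 4, which overlapped.

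Several paternally expressed genes lie within another gene. Nnat lies within an intron of Blcap, on the other strand, and encodes a small membrane protein of developing neurons. It was at 1150, 1170, 1290 and 1200 CPM in mutant libraries 1 to 4 and at 1110, 1230, 1330 and 1360 CPM in wild-type libraries 1 to 4, with overlap (edgeR adjusted p = 0.667). Its host Blcap averaged 137 ± 3.90 CPM in mutant cortex and 137 ± 6.72 CPM in wild-type cortex (SD, n = 4 each). Zrsr1, related to the U2 splicing factors, lies within Commd1, a regulator of copper handling. Zrsr1 was at 71.0, 72.7, 74.5 and 91.9 CPM in mutant libraries 1 to 4 and at 76.3, 75, 73.4 and 80.9 CPM in wild-type libraries 1 to 4, where mutant replicate 4 stood apart. Commd1 averaged 17.9 ± 0.884 CPM in mutant cortex and 19 ± 0.792 CPM in wild-type cortex. Nap1l5, of the nucleosome assembly protein family and within Herc3, was at 55.5, 60.1, 65.0 and 52.5 CPM in mutant libraries 1 to 4 and at 50.9, 51.0, 50.9 and 57.1 CPM in wild-type libraries 1 to 4. Wild-type library 4 lay within the mutant range and the other wild-type libraries below it (log2 fold change 0.15 ± 0.07, edgeR adjusted p = 0.381).

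Plagl1 is a zinc finger transcription factor that regulates other imprinted genes in mice. It was at 57.3, 60.9, 57.1 and 68.4 CPM in mutant libraries 1 to 4 and at 59.5, 62.5, 64.9 and 68.5 CPM in wild-type libraries 1 to 4, with overlap (log2 fold change -0.07, edgeR adjusted p = 0.654). Impact, an inhibitor of the stress kinase GCN2, was at 48.8, 45.4, 46.1 and 52.2 CPM in mutant libraries 1 to 4 and at 43.6, 49.4, 50.5 and 53.8 CPM in wild-type libraries 1 to 4, also with overlap (log2 fold change -0.04, edgeR adjusted p = 0.827). For both genes the 4 libraries of set 2 lay above those of set 1.

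Among 26 transcripts that carried at least 5% of the TPM of 9 imprinted genes with allele-specific isoforms or promoters, 2 had shares that did not overlap between genotypes, against 3.3% of 41211 transcripts of all genes tested that were taken by the same limit. None of the 26 passed adjustment over them (smallest adjusted p = 0.371, exact two-sided permutation test). The main Snrpn transcript (Snrpn-201) made up 96.3%, 96.8%, 96.9% and 96.8% of Snrpn TPM in mutant libraries 1 to 4 and 96.2%, 96.1%, 95.4% and 95.7% in wild-type libraries 1 to 4. A short Plagl1 transcript (Plagl1-220) made up 1.61%, 6.40%, 6.44% and 6.54% of Plagl1 TPM in mutant libraries 1 to 4 and 10.3%, 6.77%, 7.49% and 10.6% in wild-type libraries 1 to 4, lower in every mutant library. These shares rest on 1.89 to 8.02 estimated reads per mutant library and 13.1 to 23.0 per wild-type library. Of 12 transcripts of 5 genes added after the values were seen, 0 did not overlap. Isoform usage of Meg3, Blcap, Trappc9 and Mest overlapped between genotypes. The long Meg3-209 transcript, for example, held 23.1% ± 1.17 of Meg3 TPM in mutants and 22.6% ± 0.792 in wild type (SD, n = 4 each), and Mest-211 held 88.3% ± 4.89 of Mest TPM in mutants and 91.6% ± 2.43 in wild type.

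A further list of 32 imprinted genes outside the 37 was read from the same fits. Of 29 that passed the filter, 19 had a fold above 0, the median log2 fold change was 0.05, and edgeR called 0 of them with genotype alone (6 at an unadjusted p under 0.05, where 13.7% of all genes were, and 2 by DESeq2, which called 2% of all genes). The spread was wider than among the 37, with 10 of the 29 beyond 0.2, of which 8 were under 10 CPM in both genotypes. Peg12 had the smallest p. It was at 2.78, 2.93, 2.32 and 3.36 CPM in mutant libraries 1 to 4 and at 3.95, 4.10, 4.23 and 3.69 CPM in wild-type libraries 1 to 4, lower in every mutant library (log2 fold change -0.49 ± 0.13, SE, n = 4 each; edgeR adjusted p = 0.205, or 0.17 with the set as a term). Th, which encodes the tyrosine hydroxylase of catecholamine synthesis, had the largest fold of the list and was named after its values were seen. It was at 1.56, 1.37, 3.67 and 2.86 CPM in mutant libraries 1 to 4 and at 1.31, 1.12, 0.761 and 1.23 CPM in wild-type libraries 1 to 4, higher in every mutant library (log2 fold change 1.11 ± 0.31, SE, n = 4 each; edgeR adjusted p = 0.238, or 0.136 with the set as a term).

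Of 28 genes of the machinery that sets or keeps imprints, 25 passed the filter, 9 had a fold above 0, and the median was -0.03. edgeR called 0 with genotype alone (5 at an unadjusted p under 0.05, where 13.7% of all genes were, and 2 by DESeq2, which called 2%). With the set as a term edgeR called 2, both lower, against 0.363% of all genes called lower in that fit, and 10 of the 25 were lower at an unadjusted p under 0.05, against 7.21% of all genes.

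The 2 called genes were Arid4b and Ezh2. Arid4b, a partner of the retinoblastoma protein that acts on imprinting in mice, was at 70.8, 68.3, 74.5 and 68.5 CPM in mutant libraries 1 to 4 and at 88.4, 84.1, 77.4 and 87.5 CPM in wild-type libraries 1 to 4. Every mutant library lay below every wild-type library. It fell by 0.29 on the log2 scale with the set as a term (edgeR adjusted p = 0.0305), and its log2 fold change was -0.26 with genotype alone (adjusted p = 0.163). The call was lost without mutant replicate 1 (0.0634), 2 (0.0795) or 4 (0.106) or wild-type replicate 1 (0.263) or 2 (0.0535). Ezh2, the methyltransferase of Polycomb complex PRC2, was at 77.0, 73.7, 72.5 and 61.4 CPM in mutant libraries 1 to 4 and at 92.5, 72.9, 69.7 and 76.4 CPM in wild-type libraries 1 to 4. Its genotypes overlapped, and it fell by 0.28 on the log2 scale only with the set as a term (edgeR adjusted p = 0.025, against 0.537 with genotype alone), a call lost without mutant replicate 2 (0.0777) or 4 (0.0719) or wild-type replicate 1 (0.264). Zfp57, whose protein keeps the methylation of imprints, was at 227, 215, 235 and 212 CPM in mutant libraries 1 to 4 and at 255, 239, 239 and 258 CPM in wild-type libraries 1 to 4. All its mutant libraries were lower, but the log2 fold change of -0.16 ± 0.05 (SE, n = 4 each) did not pass (edgeR adjusted p = 0.247, or 0.0751 with the set as a term).

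The authors' deposited table listed 36 of the imprinted genes, 34 with an adjusted p. It listed Peg10 at 0.39 on the log2 scale (adjusted p = 0.000433) and H19 at 0.30 (adjusted p = 0.00279), and these were the 2 with an adjusted p under 0.05 in the authors' deposited table. The share of all genes under 0.05 in that table is not given here, so this count cannot be set against it. The sign of H19 there is that of the fit with the library set and opposite to that of the fit on genotype. The same held, among others, for Ube3a (-0.12, adjusted p = 0.0715 in the authors' deposited table), Zim1 (-0.075) and Dlk1 (0.025). Airn, at 0.001, had the sign of the fit on genotype instead. The authors' deposited table gave Peg13 -0.08 (adjusted p = 0.172) and Copg2 -0.05 (adjusted p = 0.526). It listed Rtl1 and Nespas at 0.001 each, where the fit on genotype gave 0.71 and -0.54. Its fold sizes may thus be on another scale than those given here, and a smaller fold there is not read as a smaller difference. The model behind the authors' deposited table is not given in the sources used here.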

How the data were processed

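mRNA libraries from P0 mouse cortex (4 R342X mutant, 4 wild type) were quantified by the authors with Salmon 0.12.0 against GRCm38, per the submitters' processing notes. The deposited library files give an estimated count and a TPM value per transcript, per the file headers. Per the file headers, the authors' deposited comparison table holds a normalized mean (a signal value), the log2 fold change and its error, and raw and adjusted p-values per gene. DESeq2 is named in the submitters' processing notes. The sources used here do not give the read filters, the use of strand or the model of that table.

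Estimated counts were summed per Ensembl gene identifier and rounded to whole numbers. edgeR 4.0.16 in R 4.3.3 (TMM scaling, default filter on low counts, quasi-likelihood F test, two-sided) was fitted across all 20097 genes that passed, with Benjamini-Hochberg adjustment over all of them and calls at an adjusted p under 0.05. Levels are CPM after TMM scaling. Standard errors follow from each fold and its F value, and 95% intervals are 1.96 standard errors to either side. Exact two-sided permutation tests used all 70 assignments of the 8 libraries. The script was tested on simulated data. Totals of 30469745 to 74266937 reads per library bound counting precision. Library sets follow the sign of principal component 1, computed on log2 CPM with a prior count of 2. Alternatives were DESeq2 1.42.0, limma 3.58.1 (voom, and log2(TPM + 0.1)), upper-quartile scaling, no filter or at least 5 CPM in 4 libraries, transcript length offsets, a replicate block, the library set and each library left out. Whether same-numbered libraries deviate together was checked, and the numbers were not taken to pair samples. Read ratios between genes had 0.5 added to each count.

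Gene coordinates follow the GENCODE annotation of GRCm38. Promoter windows are RefSeq sequences of GRCm38.p6, matched by symbol. The alleles are textbook assignments. The imprinted genes, the further lists and the library set were chosen with earlier results of these data known. Values in every library are given for genes called in either fit, genes whose genotypes do not overlap, the 6 of smallest p and the most abundant by CPM in each domain. Sgce, Trappc9, Mest, Ube3a, Zim1, Dlk1, Zfp57 and Th were added after their values were seen. Of each other list the genes called in either fit, or else that of smallest p, are named.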

Additional observations from a re-analysis of the deposited data

Results flagged for a closer look

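Each genotype was examined for a library that stood far from the other 3 in the level of an imprinted gene, by the gap to the nearest library over the range of the group. Of 72 groups of 4 libraries, 4 (5.56%) stood out, where chance marks about 1 in 20. H19 was at 151 CPM in mutant replicate 4, against 72.9, 76.9 and 78.3 CPM in the other mutant libraries. Zrsr1, a splicing factor gene within Commd1, was also high in mutant replicate 4, at 91.9 CPM, against 71.0, 72.7 and 74.5 CPM. Ube3a was at 128 CPM in wild-type replicate 1, against 90.6, 86.5 and 84.1 CPM in the other wild-type libraries. Nap1l5 was at 57.1 CPM in wild-type replicate 4, against 50.9, 51.0 and 50.9 CPM. Mutant replicate 4 and wild-type replicate 1 are the libraries that fell in the other set than the rest of their genotype. Whether the set contributes to these values was not tested.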

How the results depend on the processing

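The number of genes called was 4 with genotype alone. It was 401 with DESeq2, 13 with no filter, 20 with the replicate number as a block and 121 with the library set as a term. Leaving out each library in turn gave 3 to 720 calls with genotype alone, 720 without mutant replicate 4, and with the set as a term 40, 21, 46 and 54 without mutant replicates 1 to 4 and 20, 59, 68 and 130 without wild-type replicates 1 to 4. Imprinted genes called were 0 in edgeR, 2 with DESeq2, 1 with the set as a term, 0 with the replicate block, 0 to 1 with a library left out, and 0 to 2 with the set as a term and a library left out. The median log2 fold change of imprinted genes ran from 0.026 to 0.046 with a library left out, and from -0.001 to 0.039 with the set as a term as well. The ranges were 0.022 to 0.059 and -0.018 to 0.023 for maternally expressed genes (-0.011 without mutant replicate 4), and 0.009 to 0.063 and 0.002 to 0.069 for paternally expressed genes. On log2(TPM + 0.1) with limma the median was 0.092 for imprinted and 0.094 for paternally expressed genes, where all genes had 0.051. H19 changed sign when the set was a term (0.334, edgeR adjusted p = 0.0552), with calls of 0.286 without wild-type replicate 2 and 0.362 without wild-type replicate 4 and none without each of the other 6 libraries (adjusted p from 0.0742 to 0.368). With genotype alone it ran from -0.405 to 0.025 with a library left out, above 0 without mutant replicates 1 to 3 or wild-type replicate 4. The causes were not tested. Same-numbered libraries correlated at 0.244, -0.0269, -0.0845 and 0.318 in their deviations, so the block rests on a number only, and Peg10 under it stood at 0.38 on the log2 scale (edgeR adjusted p = 0.0518). Depth limits the rare Rtl1, Nespas and Phlda2.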

Other observations

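Markers of other cell states were read from the same fit on genotype. Of 12 neuronal genes 8 had a fold above 0, with a median log2 fold change of 0.06, and Camk2a, a kinase of excitatory neurons, had the smallest p, at 170 ± 6.53 CPM in mutant cortex and 143 ± 7.78 CPM in wild-type cortex (SD, n = 4 each; edgeR adjusted p = 0.159). Of 12 cell cycle genes 1 had a fold above 0, with a median of -0.24, and Mcm7, a replication helicase subunit, had the smallest p, at 67.9 ± 5.36 CPM in mutant cortex and 83.5 ± 7.62 CPM in wild-type cortex (edgeR adjusted p = 0.2). The cell cycle median was -0.10 with the library set as a term. Of 10 striatal markers 6 had a fold above 0 (median 0.07), or 2 with the library set as a term (median -0.06), and Ppp1r1b had the smallest p, at 51.6 ± 4.28 CPM in mutant cortex and 56.1 ± 4.02 CPM in wild-type cortex (edgeR adjusted p = 0.465). Red blood cell genes summed to 1032 to 2013 CPM in mutants and 567.3 to 2679 CPM in wild type, with Hbb-bt of smallest p (edgeR adjusted p = 0.666). In the vascular list Eng, a co-receptor of endothelial cells, had the smallest p, at 29.5 ± 0.549 CPM in mutant cortex and 22.6 ± 1.64 CPM in wild-type cortex (edgeR adjusted p = 0.133, or 0.0301 with the set as a term). The actin gene Acta2 of smooth muscle averaged 4.2 ± 1.43 CPM in mutant cortex and 2.58 ± 0.258 CPM in wild-type cortex (edgeR adjusted p = 0.244, or 0.0422 with the set as a term). Leaving out 1 library lost these calls in 4 of 8 fits for Eng (edgeR adjusted p up to 0.208) and in 7 of 8 for Acta2 (up to 0.427). In the choroid plexus list Prlr had the smallest p, at 1.57 ± 0.247 CPM in mutant cortex and 1.11 ± 0.164 CPM in wild-type cortex (edgeR adjusted p = 0.276), and among hypothalamic and thalamic markers Lhx9, at 10.1 ± 0.118 CPM in mutant cortex and 8.73 ± 1.64 CPM in wild-type cortex (edgeR adjusted p = 0.46).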
